A study of Rattus norvegicus with 6 samples.

Results

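Enzymes that break down or convert amino acids, and the enzymes of creatine synthesis, were followed in the renal cortex of rats. The set held 54 genes, which were listed by name and found on the array by matching each probe's RefSeq transcript to the gene's current or older rat symbol. Of these, 52 were matched, Auh and Gldc were not, and Gad1 was not well above background on any array by any of its 4 probes. The other 51 were well above background on all 6 arrays and were tested among 31582 genes or transcripts in all. Only 12077 of the 31582 carried a gene name, and all 31582 are meant where all genes are given below.

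The samples were total RNA from the cortex of male Sprague-Dawley (Crl:CD(SD)) rats, an outbred stock, bought at 5 weeks of age, with no genetic change named in the labels. In the vehicle group, 3 animals received corn oil for 4 weeks. In the BBMP group, 3 animals received 2,2-bis(bromomethyl)-1,3-propanediol, a brominated diol used as a flame retardant, at 1000 mg/kg/day for 4 weeks. Each animal has 1 single-colour array, and the comparison asks which genes differ between treated and vehicle animals.

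The proximal tubule reabsorbs filtered amino acids and is a main site of their metabolism. There, guanidinoacetate, the precursor of creatine, is made from arginine and glycine, arginine is made from citrulline, and carbon skeletons of amino acids feed the mitochondria and gluconeogenesis. Much of the pathway is shared with the liver, where creatine synthesis is completed.

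The level of a gene is the log2 processed signal of its brightest tested probe minus the log2 75th percentile of that array, so 0 marks a signal at that percentile. Levels are compared between arrays for 1 probe and never between genes. A difference is the BBMP mean minus the vehicle mean, in log2 units, with its standard error (SE) and n = 3 arrays a group, and a gene is called higher or lower where limma's p, adjusted by the Benjamini-Hochberg method over all 31582 genes, was under 0.05.

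On the vehicle arrays 67.2% to 68.6% of probes stood well above background, and on the BBMP arrays 70.5% to 72.7%. The 75th percentile of the processed signal ran from 942.69 to 949.74 on the vehicle arrays and from 1244.5 to 1259.5 on the BBMP arrays. No spot of a member was saturated. The vehicle arrays shared 1 slide and the BBMP arrays another, scanned separately, so the compound, the slide and the scan cannot be told apart. Markers of the labelled tissue were present: all 8 proximal tubule markers were measured and none was called, and their mean level ran from 6.563 to 6.705 over the vehicle arrays and from 6.598 to 6.626 over the BBMP arrays. Of the 4 markers of medulla and urothelium, 2 were called higher, and the mean level of the list ran from -3.365 to -3.122 over the vehicle arrays and from -2.865 to -2.57 over the BBMP arrays. Of the 4 endothelial markers 1, Cdh5, was called higher, at 0.51. The others were not called: Tek gave 0.55, Pecam1 -0.34 and Kdr -0.19, so the list did not share a sign. Of the 3 measured markers of the distal convoluted and connecting tubule 1, Trpv5, was called lower, at -0.45. In the same list Calb1 gave -0.64 and Slc12a3 0.10. The mean level of that last list ran from 1.482 to 1.856 over the vehicle arrays and from 1.328 to 1.46 over the BBMP arrays. None of the tested markers of thick ascending limb, collecting duct, intercalated cell, leukocyte, fibroblast, adrenal gland, liver or adipocyte was called. The mean level of the intercalated cell list nevertheless lay lower on every BBMP array, from 4.299 to 4.319 against 4.434 to 4.696 over the vehicle arrays. Its markers were mixed: Foxi1 gave -0.53, Atp6v1g3 -0.38, Slc26a4 -0.19 and Slc4a1 0.16. The part of these shifts in the differences described here was not tested. In whole cortex, fewer cells of a type and less RNA per cell cannot be told apart.

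Of the 51 enzymes, 5 were called, which is 9.8%, beside 17.9% of all genes. Haao, Sardh, Fah and Acy1 were higher in the BBMP group, 4 genes beside a background of 10.2% called higher. Hibadh was lower, beside a background of 7.68% called lower. The share called among the enzymes was thus under that among all genes. These counts changed when 1 array was left out, as did the calls over all genes, which numbered 5659 with all arrays. Without vehicle replicate 3, limma called 5 members higher and 1 lower, beside 4002 of all genes. Without vehicle replicate 1 it called 2 members higher, beside 1828 of all genes. It called 1 member higher without vehicle replicate 2 or BBMP replicate 3, beside 1537 and 1631 of all genes. Without BBMP replicate 1 or BBMP replicate 2 it called 0 members, beside 976 and 3 of all genes. In those last fits 12 and 11 members had an unadjusted p under 0.05, against 13 with all arrays. The groups did not overlap for 18 enzymes, 12 of them higher and 6 lower, beside 43.6%, 25.0% and 18.6% of all genes. The difference was above 0 for 32 enzymes, which is 62.7%, beside 56.4% of all genes, and below 0 for 19. Under median scaling or normexp background correction it was above 0 for 28. In the main fit its median was 0.0981 against 0.0494 over all genes, and for none did it reach 1. The median of its absolute size was 0.2145, against 0.2072 over all genes, and the median SD among vehicle arrays was 0.1248, against 0.1211. Among brighter genes the comparison was another. These were genes measured on all 6 arrays with a mean level over the 75th percentile, and they held 45 of the 51 members. These members had a median absolute difference of 0.2145 against 0.1648 and a median vehicle SD of 0.1175 against 0.0763. Their median difference was 0.0981 against -0.0075. The bound is a floor only, so the members were not matched in signal to those genes. Of these 45 members 11.1% were called, beside 20.2% of such genes.

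**Figure D1:**
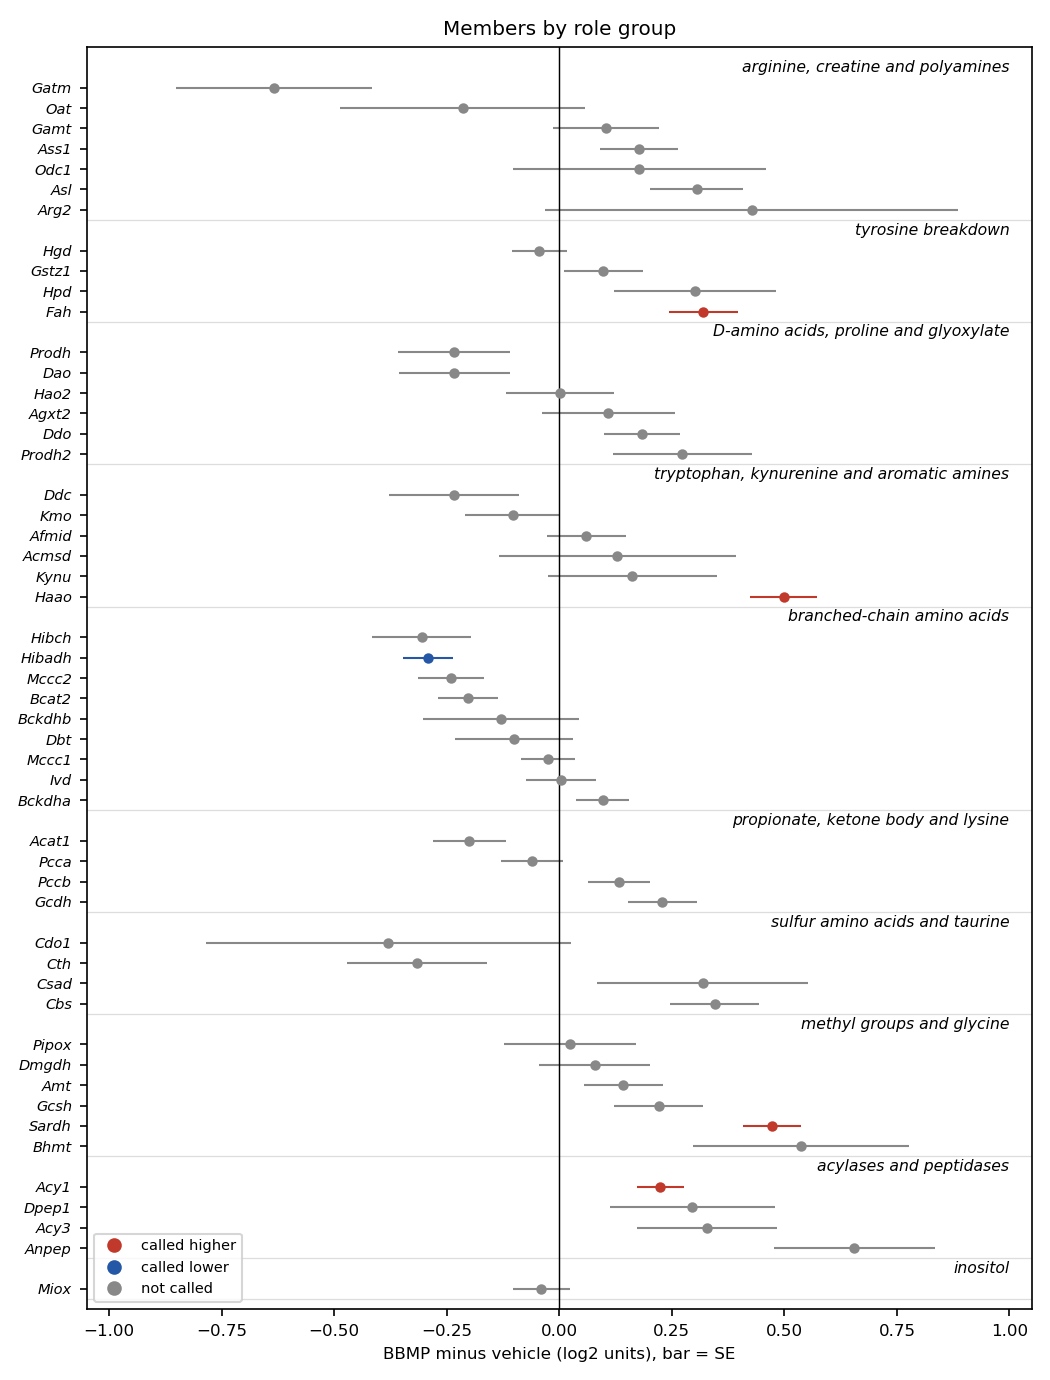
Difference between BBMP and vehicle (horizontal axis, log2 units) for each of the 51 tested enzymes (vertical axis), grouped by role; points are the fitted differences, bars the SE, from 3 arrays a group. The 4 enzymes called higher lie in 4 different groups, and the 1 called lower is in the branched-chain group, where 7 of 9 points lie below 0.

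The start regions of the 5 called genes are shown because they are the members for which a difference passed the test. Each is the 150 bases before a RefSeq transcription start, 5′ to 3′ on the gene's strand, from RefSeq's GRCr8 promoter table. Capitals mark any match, on either strand, to 5 motifs: TATAAA (the TATA box), CCAAT (the CCAAT box), GGGCGG (the GC box), GTTAAT (a half-site of the HNF1 factors) and TGACNNNGC (the core of the antioxidant response element). Each motif was searched for by itself, so matches of different motifs may overlap. The regions are Haao at chr6:16598175-16598324 on the plus strand, and on the minus strand Fah at chr1:147980606-147980755, Acy1 at chr8:115956406-115956555, Hibadh at chr4:83077820-83077969, and Sardh, which has 2 listed starts, at chr3:30972138-30972287 and chr3:30971658-30971807.
Haao: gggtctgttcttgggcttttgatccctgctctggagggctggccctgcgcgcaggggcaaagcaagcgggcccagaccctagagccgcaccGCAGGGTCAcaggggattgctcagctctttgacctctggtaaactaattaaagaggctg
Fah: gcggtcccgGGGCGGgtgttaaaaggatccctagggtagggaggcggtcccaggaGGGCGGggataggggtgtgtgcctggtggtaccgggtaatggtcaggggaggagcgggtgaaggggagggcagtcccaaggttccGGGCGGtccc
Acy1: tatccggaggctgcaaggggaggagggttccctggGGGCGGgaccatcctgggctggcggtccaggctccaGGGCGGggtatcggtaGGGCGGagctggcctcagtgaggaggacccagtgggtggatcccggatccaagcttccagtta
Sardh, first start: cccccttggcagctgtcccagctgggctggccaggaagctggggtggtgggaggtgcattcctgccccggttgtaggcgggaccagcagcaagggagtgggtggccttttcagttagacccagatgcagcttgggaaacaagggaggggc
Sardh, second start: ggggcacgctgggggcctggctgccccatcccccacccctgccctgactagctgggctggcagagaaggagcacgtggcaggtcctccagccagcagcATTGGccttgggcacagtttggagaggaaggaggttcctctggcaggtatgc
Hibadh: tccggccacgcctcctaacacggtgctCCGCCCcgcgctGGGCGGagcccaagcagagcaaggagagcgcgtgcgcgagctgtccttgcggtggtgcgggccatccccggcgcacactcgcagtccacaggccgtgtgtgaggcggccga

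The GC box matched 3 times in Fah, 3 times in Acy1 and 2 times in Hibadh, which include genes called in both directions. The Haao region held 1 match to the antioxidant response core, and the second Sardh region held 1 CCAAT. No motif was found in all 5 genes. Over 33469 RefSeq promoters of the same length, 26.0% held GGGCGG, 23.5% CCAAT, 8.0% TATAAA, 6.58% TGACNNNGC and 3.74% GTTAAT. Among the 44 members with a listed promoter, 19 held GGGCGG, 19 CCAAT, 5 TATAAA, 5 TGACNNNGC and 3 GTTAAT. The shares count regions and these numbers count members, some with more than 1 listed start, so the units differ. These regions were rich in G and C, with a median of 62.0% over the 47 listed regions of members against 52.7% over all promoters. A match is a description of the letters only.

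Arginine, creatine and polyamine metabolism had no called member among 7, with differences from -0.63 to 0.43 and a median of 0.18. Gatm makes guanidinoacetate, the first and committed step of creatine synthesis. Its level was 5.92, 5.25 and 5.24 on vehicle arrays 1 to 3 and 5.04, 4.62 and 4.86 on BBMP arrays 1 to 3. Every BBMP array lay below every vehicle array, with vehicle 1 well above the other two of its group. The difference was -0.63 ± 0.22 (SE), with an adjusted p of 0.0957 and a 95% interval from -1.17 to -0.10 unadjusted for the number of genes, and without vehicle replicate 1 it was -0.41. A second probe of Gatm gave -0.31 ± 0.15 with overlapping groups and an adjusted p of 0.201. Gamt, which methylates guanidinoacetate to creatine, had a difference of 0.10 ± 0.12 with overlapping groups, and its second probe gave 0.28 ± 0.10 with groups that did not overlap and an adjusted p of 0.104. The 2 steps of creatine synthesis therefore had values of opposite sign, and neither was called.

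Ass1 and Asl, which convert citrulline to arginine in the kidney, had differences of 0.18 ± 0.09 and 0.30 ± 0.10. For Asl the groups did not overlap, and its adjusted p was 0.0908. Asl was called higher without vehicle replicate 3, at 0.41, and with normexp background correction, at 0.35. Arg2, mitochondrial arginase, had a difference of 0.43 ± 0.46, and Odc1, which makes the polyamine putrescine from ornithine, 0.18 ± 0.28. Oat, which sends ornithine toward proline and glutamate, had a difference of -0.21 ± 0.27, and -0.40 ± 0.30 on its second probe. The last 3 genes had the wide SE of a large spread among animals, described further on.

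Tyrosine breakdown had 1 member of 4 called, Fah, which performs the last step by splitting fumarylacetoacetate. The level of Fah was 4.63, 4.71 and 4.84 on the vehicle arrays and 5.09, 4.98 and 5.06 on the BBMP arrays. All 3 BBMP values lay above the highest vehicle value. The difference was 0.32 ± 0.08, which is 1.25-fold, with an adjusted p of 0.0415. The enzymes before it gave 0.30 ± 0.18 for Hpd, which makes homogentisate, -0.04 ± 0.06 for Hgd, which opens its ring, and 0.10 ± 0.09 for Gstz1, the isomerase that precedes Fah. None of these was called and each had overlapping groups, and the 2 probes of Hgd gave -0.04 and 0.17. The call of Fah held without vehicle replicate 3 (adjusted p = 0.0424) and was lost without vehicle replicate 1 (0.103), vehicle replicate 2 (0.108), BBMP replicate 1 (0.117), BBMP replicate 2 (0.0842) or BBMP replicate 3 (0.11), and under quantile normalization (0.0502), median scaling (0.0749) or no filter on dim probes (0.0589).

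The oxidases of D-amino acids, proline and glyoxylate had no called member among 6, with differences from -0.23 to 0.27. Prodh2, which oxidises hydroxyproline, gave the largest in size. Its level was 5.06, 5.18 and 5.64 on the vehicle arrays and 5.56, 5.60 and 5.54 on the BBMP arrays. Vehicle 3 lay above all BBMP arrays, while the other vehicle arrays lay below them. The difference was 0.27 ± 0.15 with an adjusted p of 0.253, and without vehicle replicate 3 it was 0.45 with an adjusted p of 0.0351. With the position on the slide as a block it turned to -0.07, since vehicle replicate 3 is the only vehicle array in the slide row that holds all BBMP arrays.

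Prodh, the proline dehydrogenase, had a difference of -0.23 ± 0.12, but its 4 probes disagreed, from -0.23 to 0.31. Dao, which oxidises neutral D-amino acids, also gave -0.23 ± 0.12, and Ddo, which oxidises D-aspartate, 0.18 ± 0.09. Of these 3, Ddo alone had groups that did not overlap. Hao2, a peroxisomal hydroxyacid oxidase, gave 0.00 ± 0.12, and Agxt2, a mitochondrial aminotransferase that uses glyoxylate, 0.11 ± 0.15.

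The kynurenine pathway and aromatic amine genes had 1 called member of 6, Haao, which opens the ring of 3-hydroxyanthranilate on the way to NAD. The level of Haao was 3.83, 3.66 and 3.66 on the vehicle arrays and 4.27, 4.16 and 4.21 on the BBMP arrays. The groups were clearly apart, with each spanning under 0.2. The difference was 0.50 ± 0.07, which is 1.41-fold, with an adjusted p of 0.0162. It is the largest difference among the called members. The other steps were not called: Kmo, which makes 3-hydroxykynurenine, gave -0.10 ± 0.10, Kynu, which makes 3-hydroxyanthranilate, 0.16 ± 0.19, Afmid, which makes kynurenine, 0.06 ± 0.09, and Acmsd, which diverts the product of Haao away from NAD, 0.13 ± 0.26. Ddc, which makes dopamine and serotonin, gave -0.23 ± 0.14. All 5 had overlapping groups. Without vehicle replicate 2, BBMP replicate 1, BBMP replicate 2 or BBMP replicate 3 the adjusted p of Haao was 0.0528, 0.0577, 0.056 and 0.0516, and without vehicle replicate 1 or 3 it stayed called, the difference running from 0.47 to 0.56 over the 6 fits.

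The branched-chain amino acid pathway had 9 tested members of 10 and 1 call. Hibadh oxidises 3-hydroxyisobutyrate, the step after Hibch in valine breakdown. The level of Hibadh was 6.06, 5.998 and 6.02 on the vehicle arrays and 5.71, 5.77 and 5.72 on the BBMP arrays. Each group spanned under 0.1 and the groups did not overlap. The difference was -0.29 ± 0.06, which is 1.22-fold lower, with an adjusted p of 0.0241, and a second probe gave -0.54 ± 0.06 with an adjusted p of 0.0113. The call was lost when any 1 array was left out, with adjusted p from 0.0522 without vehicle replicate 3 to 0.0779 without BBMP replicate 1, while the difference stayed between -0.31 and -0.28.

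In the same pathway 7 of 9 members had differences below 0, with a median of -0.13, whereas 56.4% of all genes lay above 0. The groups did not overlap for 4 of those with lower values and for 1 with higher values, beside 18.6% and 25.0% of all genes. Bcat2, the mitochondrial transaminase that begins the pathway, gave -0.20 ± 0.07 with an adjusted p of 0.0857, and Hibch, which releases 3-hydroxyisobutyrate, -0.31 ± 0.11 with 0.106. Neither passed the test, although Bcat2 was called lower under median scaling, at -0.28. The subunits of the branched-chain ketoacid dehydrogenase did not share a sign, with 0.10 ± 0.06 for Bckdha, -0.13 ± 0.17 for Bckdhb and -0.10 ± 0.13 for Dbt. The subunits of methylcrotonyl-CoA carboxylase, an enzyme of leucine breakdown, gave -0.02 ± 0.06 for Mccc1 and -0.24 ± 0.07 for Mccc2. Mccc2 had groups that did not overlap and an adjusted p of 0.0736, and it was called lower with median scaling, with normexp background correction and with the trended fit. Ivd, which oxidises isovaleryl-CoA in the same branch, gave 0.00 ± 0.08. Under the 5 other scalings and background corrections, 7 or 8 of the 9 were below 0.

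Propionate, ketone body and lysine metabolism had no called member among 4. Gcdh, which oxidises glutaryl-CoA in lysine and tryptophan breakdown, gave the largest difference. Its level was 6.37, 6.56 and 6.59 on the vehicle arrays and 6.72, 6.73 and 6.76 on the BBMP arrays. The BBMP arrays lay together above all vehicle arrays, of which vehicle 1 was the lowest. The difference was 0.23 ± 0.08 with an adjusted p of 0.0905, and its second probe gave 0.39 ± 0.10 with 0.0503. It was called with trended, robust moderation, with an adjusted p of 0.0416. The subunits of propionyl-CoA carboxylase gave -0.06 ± 0.07 for Pcca, whose 3 probes ran from -0.07 to 0.04, and 0.13 ± 0.07 for Pccb. Acat1, the mitochondrial acetoacetyl-CoA thiolase, gave -0.20 ± 0.08 with groups that did not overlap.

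Sulfur amino acid and taurine metabolism had no called member among the 4 tested. Cbs, which joins homocysteine and serine, gave 0.34 ± 0.10 with groups that did not overlap and an adjusted p of 0.0632, and its second probe gave 0.44 with 0.0352. It was called with trended moderation or with the mean of its probes. Cth, which releases cysteine in the next step, gave -0.32 ± 0.16, and was called lower without vehicle replicate 3, at -0.49. The 2 steps of transsulfuration thus had differences of opposite sign, neither called on the brightest probe. Cdo1, which oxidises cysteine on the way to taurine, had a level of -1.64, -2.85 and -3.10 on the vehicle arrays and -3.22, -2.60 and -2.92 on the BBMP arrays. Vehicle 1 stood more than 1 unit above the other vehicle arrays. Its difference of -0.38 ± 0.41 (adjusted p of 0.538) became 0.066 without vehicle replicate 1. Csad, the next enzyme of taurine synthesis, gave 0.32 ± 0.24.

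The methyl group and glycine enzymes had 1 called member of 6, Sardh, which oxidises sarcosine to glycine in mitochondria. The level of Sardh was 0.05, 0.04 and 0.03 on the vehicle arrays and 0.55, 0.57 and 0.42 on the BBMP arrays. The vehicle arrays were nearly equal and every BBMP array lay above them. The difference was 0.47 ± 0.06, which is 1.39-fold, with an adjusted p of 0.0141. The call held without any 1 of the vehicle arrays or without BBMP replicate 3, and was lost without BBMP replicate 1 (adjusted p = 0.0534) or BBMP replicate 2 (0.0559), the difference running from 0.45 to 0.52.

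All 6 members of that group had differences above 0, beside 56.4% of all genes, with a median of 0.18, and the 5 others were not called. Under median scaling, cyclic loess and normexp background correction 5 of the 6 were above 0. The number was also 5 without vehicle replicate 1, BBMP replicate 2 or BBMP replicate 3. With the position on the slide as a block it was 4. Bhmt, which remethylates homocysteine with betaine, gave 0.54 ± 0.24 with overlapping groups and an adjusted p of 0.166, and its second probe gave 0.85. Dmgdh, which makes sarcosine from dimethylglycine, gave 0.08 ± 0.12, and Pipox, which oxidises pipecolate and sarcosine in peroxisomes, 0.02 ± 0.15, or 0.25 ± 0.17 on its second probe. Of the enzymes that act on sarcosine or its precursor, Sardh alone was called. The glycine cleavage system was represented by Amt, at 0.14 ± 0.09, and Gcsh, at 0.22 ± 0.10 (second probe 0.08 ± 0.07) and called higher with normexp background correction, since Gldc was not matched.

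The acylases and peptidases had 1 called member of 4, Acy1, which removes the acetyl group from N-acetyl amino acids. The level of Acy1 was 4.61, 4.63 and 4.62 on the vehicle arrays and 4.87, 4.84 and 4.82 on the BBMP arrays. Each group spanned under 0.05 and the groups did not overlap. The difference was 0.22 ± 0.05, which is 1.17-fold, with an adjusted p of 0.0387. The call was lost when any 1 array was left out, with adjusted p from 0.0771 without vehicle replicate 3 to 0.111 without BBMP replicate 1, and under quantile normalization (0.0513), median scaling (0.106), normexp background correction (0.115) and no filter on dim probes (0.0595). The difference stayed above 0 in all of these, from 0.14 to 0.24.

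Anpep, the brush-border aminopeptidase N, had the largest difference in size of all members and was not called. Its level was 3.75, 4.09 and 3.94 on the vehicle arrays and 4.32, 4.93 and 4.50 on the BBMP arrays. The groups did not overlap, and BBMP 2 was the highest. The difference was 0.66 ± 0.18, with an adjusted p of 0.0560, and it was called under normexp background correction, the trended fit and the filter to probes well above background on all 6 arrays. Acy3, which deacetylates aromatic and mercapturic acids, gave 0.33 ± 0.15 with groups that did not overlap, and Dpep1, the brush-border dipeptidase that cleaves cysteinylglycine, 0.30 ± 0.18. All 4 members had differences above 0 here, beside 56.4% of all genes, and under the 5 other scalings and background corrections.

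**Figure D2:**
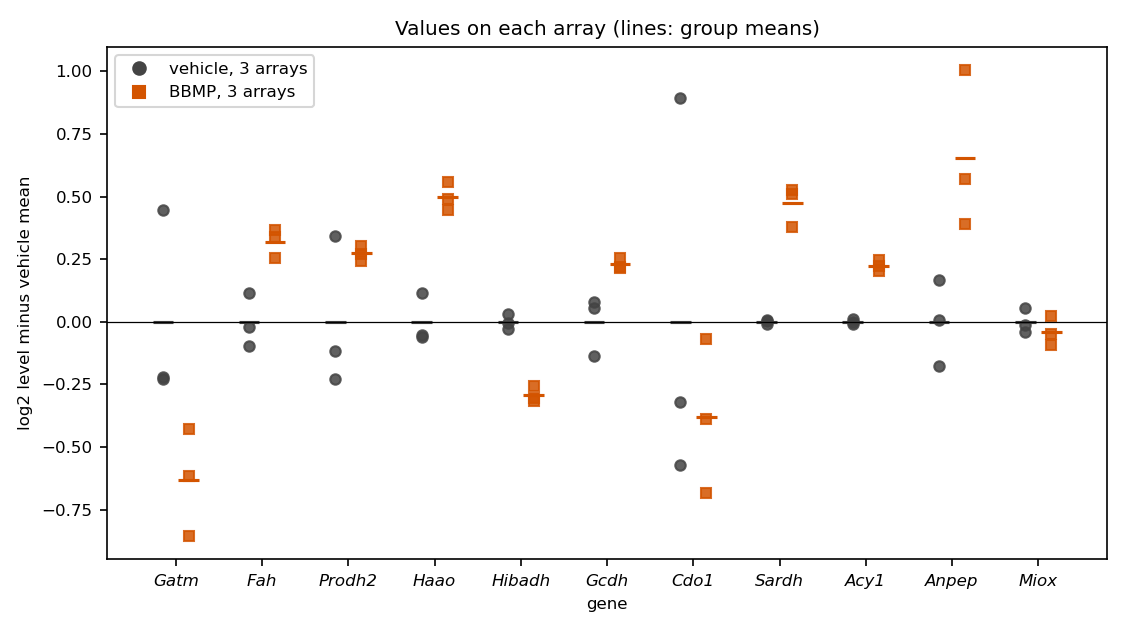
Level on each array minus the mean of the 3 vehicle arrays (vertical axis, log2 units) for the 11 enzymes described array by array (horizontal axis); circles are vehicle arrays, squares BBMP arrays and lines group means. The called genes Fah, Haao, Hibadh, Sardh and Acy1 have tight, separate groups, whereas Gatm and Anpep are separate but wide, and Cdo1, Prodh2 and Miox overlap.

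Miox, inositol oxygenase, which begins inositol breakdown in the proximal tubule, was listed with these enzymes. Its level was 9.34, 9.27 and 9.24 on the vehicle arrays and 9.30, 9.23 and 9.19 on the BBMP arrays. The groups overlapped within 0.15. The difference was -0.04 ± 0.06 with a 95% interval from -0.20 to 0.12, and its second probe gave 0.12.

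Of the members, 22 had several tested probes. For 18 of them all probes had differences of 1 sign, and for 4, Hgd, Prodh, Pcca and Miox, they did not.

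**Figure D3:**
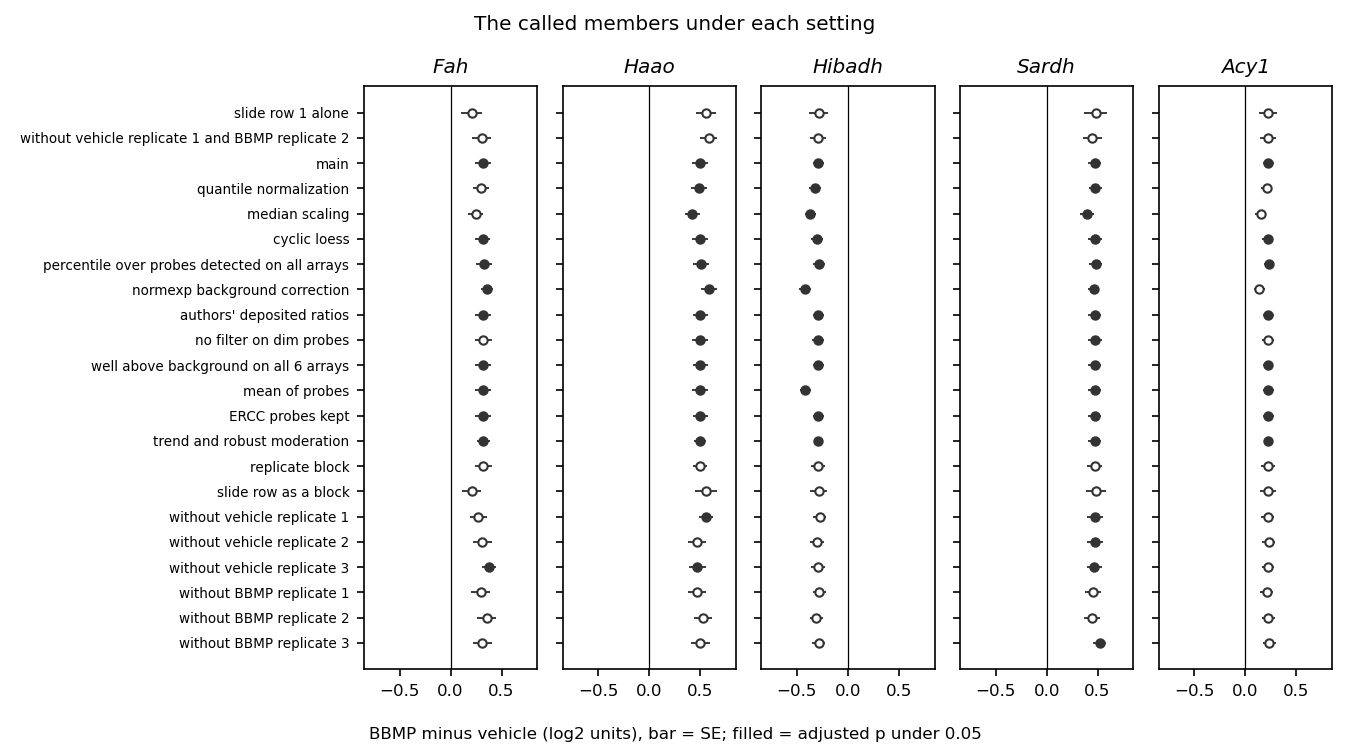
Difference between BBMP and vehicle (horizontal axis, log2 units) of the 5 called enzymes under the main fit and 21 other settings (vertical axis); bars are the SE, and filled points have an adjusted p under 0.05. Every point keeps its side of 0, and of the 21 alternatives Sardh was called in 15, Haao in 13, Hibadh in 11, Fah in 9 and Acy1 in 7.

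Some members differed more between animals of a group than between groups. The widest spans among vehicle arrays were 1.462 for Cdo1, 1.353 for Arg2, 0.936 for Odc1, 0.904 for Csad, 0.864 for Acmsd and 0.85 for Oat. Arg2 had levels of -0.02, -1.37 and -1.27 on the vehicle arrays and -1.10, 0.04 and -0.32 on the BBMP arrays. Odc1 had 2.17, 1.40 and 1.24, then 1.57, 2.11 and 1.66. Oat had 5.74, 4.89 and 5.03, then 4.65, 5.27 and 5.09. Each was highest on vehicle 1 and on BBMP 2 within its group, and lowest on BBMP 1 within the BBMP group. Csad, at 0.10, -0.44 and -0.80 and then -0.15, 0.11 and -0.15, and Cdo1 were also highest on those arrays. These 5 genes were chosen after their values were seen.

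The same arrays were highest for 4 of the 5 markers of the straight part of the proximal tubule. The exception was Slc5a1, highest on vehicle 3 (-1.30, against -1.34 on vehicle 1) and on BBMP 3 (-1.08, against -1.16 on BBMP 2). Slc7a13, an amino acid transporter of that segment, had levels of 5.95, 3.85 and 3.05 on the vehicle arrays and 3.83, 5.40 and 4.94 on the BBMP arrays. Slc22a7, an organic anion transporter, had -1.11, -3.33 and -3.35, then -3.12, -1.29 and -1.96. The 5 markers of that segment had mean levels from 1.221 to 2.642 over the vehicle arrays and from 1.351 to 2.376 over the BBMP arrays, and none was called. Of the 51 members, 10 were highest on both vehicle 1 and BBMP 2, which is 19.6%, beside 10.8% of all genes. Without those 2 arrays 0 members and 0 genes were called, with 11 members at an unadjusted p under 0.05 against 13 with all arrays. The part of the segment in the members' values was not tested.

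**Figure D4:**
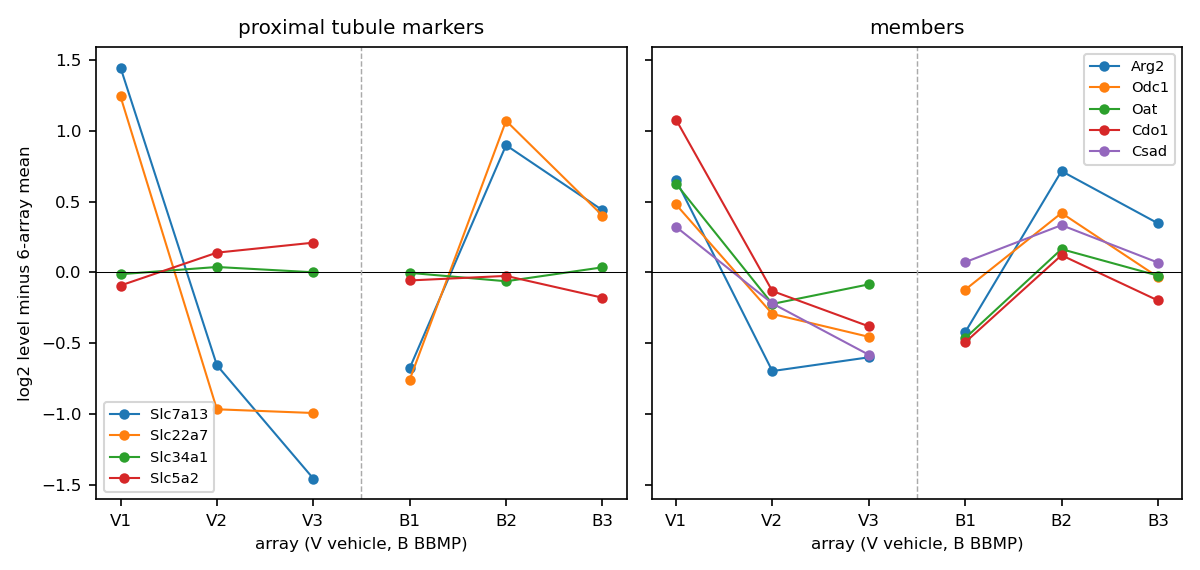
Level on each array minus the mean of all 6 arrays (vertical axis, log2 units) for 4 proximal tubule markers (left) and 5 members chosen after their values were seen (right); arrays are on the horizontal axis, V vehicle and B BBMP, and lines only join points of a group. Slc7a13, Slc22a7 and the 5 members are all highest on vehicle 1 and BBMP 2 within their groups, whereas Slc34a1 stays within 0.1 of its mean.

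Liver markers also differed between arrays: Alb had levels of -0.01, -1.24 and 1.69 on the vehicle arrays and 1.18, -0.56 and -2.29 on the BBMP arrays. Of the 5 liver markers, Tat and Cps1 did not pass the filter on dim probes in either group. The array order of Alb differs from that of the members above, and its part in the enzymes shared by liver and kidney was not tested.

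Other genes of amino acid metabolism, a fixed list of 123 beside the members, were read in the same fit. Of the 103 tested, 8 were called higher and 6 lower, which is 13.6%, again beside 17.9% of all genes. The largest differences among these were 0.49 ± 0.11 for Kyat3, which transaminates kynurenine and cysteine conjugates, and -0.46 ± 0.07 for Folh1, a peptidase that frees glutamate. Maoa, which oxidises monoamines, was also lower at -0.46 ± 0.09, and Sat1, which acetylates polyamines, at -0.43 ± 0.10. Aspa, which deacetylates N-acetylaspartate, was lower at -0.40 ± 0.09, whereas Acy1, of the same kind of reaction, was higher. Etfa, the alpha subunit of an electron carrier that takes electrons from Sardh, Dmgdh, Ivd and Gcdh, was lower at -0.32 ± 0.06. The beta subunit, Etfb, gave -0.09 ± 0.09 with overlapping groups and was not called. Xpnpep2, a brush-border aminopeptidase for peptides with proline, and Srr, which makes D-serine, were both higher at 0.32, with SE of 0.07 and 0.06. The adjusted p of the called genes named here ran from 0.0154 for Folh1 to 0.0345 for Aspa. As among the members, the calls of this list were few without 1 array: without vehicle replicate 1, 1 was higher and 3 lower, without vehicle replicate 3, 4 and 2, without BBMP replicate 3, 0 and 1, and 0 in either direction without any other array. Calls over all genes fell in the same fits, from 5659 with all arrays to the numbers given above beside the member counts.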

How the data were processed

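Total RNA of 6 renal cortex samples, labelled with Cy3, was read on Agilent rat arrays with Feature Extraction 10.7.1.1, per the file headers (10.7 per the submitters' processing notes). Per the file headers, the deposited values are linear spot intensity, background-subtracted and detrended, and flags scored 0 or 1 for well above background, saturated and outlier. The authors' deposited table holds 1 ratio per probe and array. Set against the scanner files, it is the processed signal over that array's 75th percentile, uncentred per probe, with column medians from 0.1064 to 0.1131. Each column matched a scanner file of another replicate of the same group, so replicate numbers, which follow the scanner files here, are uncertain.

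Of 61657 non-control probes, 84 ERCC spike-in and 10 outlier probes were left out. The value was the log2 processed signal minus the log2 75th percentile of the array. Testing required a probe to stand well above background on each of the 3 arrays of 1 or both groups (42657 probes), and a gene was its probe with the highest mean. Accessions without versions were matched to RefSeq's GRCr8 table for names (27452 probes); the array design rests on rn4. The test was limma's (version 3.58.1, R 4.3.3; lmFit and eBayes without covariates, two-sided), adjusted over 31582 genes. The script was tested on simulated data. The number of arrays limits the precision.

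Array values are given for called members, for members not called with separate groups and a difference of at least 0.4, and for the largest difference of a role group with neither; subunits and members with disagreeing probes could be named, and of other pathway genes the 8 called with the largest difference. The members, lists and rules were chosen with earlier results of these data known. Alternatives covered background correction, normalization, filter, probe choice, the authors' ratios, moderation, blocks and left-out arrays; normexp used the median signal with an offset of 50. Slide row 1 alone, and leaving out both vehicle 1 and BBMP 2, were chosen after seeing the data. One marker list is not reported here. Per the series' design text the samples are biological replicates. Plots were drawn with matplotlib 3.10.9 (Python 3.11.15).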

Additional observations from a re-analysis of the deposited data

How the results depend on the processing

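The fit called 5659 genes, 4 members higher and 1 lower, and 8 other pathway genes higher and 6 lower. Members called higher numbered 2 under quantile normalization, median scaling or no filter on dim probes and 7 with trended, robust moderation; members called lower numbered 3 under median scaling and 2 with normexp or trended moderation. Pathway genes called higher numbered 2 under median scaling, 1 with no filter and 15 with trended moderation, and those called lower 10 with normexp or trended moderation and 3 with no filter. With 1 array left out at a time, genes called ran from 3 (without BBMP replicate 2) to 4002 (without vehicle replicate 3), members called higher from 0 to 5 and lower from 0 to 1, and pathway genes higher from 0 to 4 and lower from 0 to 3. With slide row as a block, with slide row 1 alone, and without both vehicle 1 and BBMP 2, limma called 0 genes, 0 members and 0 pathway genes, with 7288, 7178 and 7722 genes at an unadjusted p under 0.05, against 11564. The difference of Cdo1 turned to 0.19 with slide row as a block or row 1 alone and to 0.066 without vehicle replicate 1 (range with 1 array left out -0.67 to 0.066), that of Miox to 0.069 with quantile normalization, 0.039 as the mean of probes and 0.003 with either slide row setting, and that of Prodh2 to -0.071 with either. Of called genes 57.1% were higher, against 48.9% after quantile normalization, 46.6% after cyclic loess, 48.7% with normexp, 47.2% with no filter and 35.9% after median scaling. The 51 members' median stayed above 0, from 0.0165 to 0.109, over all 21 alternatives.

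Same-numbered samples correlated at -0.116, -0.082 and -0.068 in their deviations, and the other pairs at -0.05 to 0.123. The values show no pairing by number, but 3 arrays a group are too few to decide it. With the replicate block, limma called 0 genes, 0 members and 0 pathway genes, with 9943 genes and 10 members at an unadjusted p under 0.05.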
